A study of Rattus norvegicus with 83 samples.

Results

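Gja1, F11r, Cgnl1, Cdh2, Tjp1, Ctnna1 and Ctnnb1 encode proteins of the gap, tight and adherens junctions that join neighbouring cells. They were chosen by symbol, as 7 of the 17483 genes in the deposited count table, and are described here across all 10 groups of the study. Expression was measured in 83 rat libraries by BRB-seq, a bulk method that barcodes each sample's RNA at its 3′ end so that many samples can be pooled. All groups shared 1 strain, Sprague-Dawley (Crl:CD(SD)), and were offspring of dams dosed by gavage once daily from gestational day 7. Dosing ran to pup day 22 by the labels' protocol and to pup day 16 by the series' design text. Daily doses were 8 or 16 mg per kg of body weight for methimazole (MMI) and 25 or 50 mg per kg for amitrole (Ami), and vehicle dams received corn oil. Methimazole and amitrole block thyroid peroxidase, which makes thyroid hormone, and dosing of dams with them is a model of low thyroid hormone in development.

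Libraries labelled pup day 16 (PD16) numbered 10 for MMI8, 10 for MMI16, 11 for Ami25, 12 for Ami50 and 10 for vehicle. Each of the same 5 groups had 6 libraries labelled gestational day 21 (GD21). Levels are given as CPM, the count scaled to the library total. Totals were 202270 to 1186973 counts at PD16 (median 492083) and 495369 to 1627114 at GD21 (median 963356), so 1 count was worth 2.03 CPM at the PD16 median and 1.04 CPM at the GD21 median. The labels do not tie libraries to litters, so p-values measure only the spread between these libraries.

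The libraries carry the tissue label testis, and its defining genes were at trace levels. The 14 testis genes in the table (Sertoli, Leydig and germ cells) had 187 of 57573311 counts, and 15 libraries had none. The 13 adrenal cortex genes summed to 12504 to 73672 CPM and the 9 adrenal medulla genes to 740.1 to 2230 CPM across all 83 libraries. The values below describe the libraries by their labelled groups, with no reading as testis. Embryonic globins took 17.1 ± 2.82% of globin counts in PD16 MMI8, 16.4 ± 4.28% in PD16 MMI16 and 14.8 ± 2.51% in PD16 vehicle (SD, n = 10 each). In PD16 Ami25 the share was 0.180 ± 0.0698% (SD, n = 11), in PD16 Ami50 0.142 ± 0.0798% (n = 12), and in GD21 vehicle 0.161 ± 0.0501% (n = 6). Embryonic globins are made early in gestation and give way to the adult ones as development goes on, so shares that are high in PD16 vehicle and methimazole libraries and low in GD21 libraries run against the stage labels, and the PD16 amitrole libraries had shares like those labelled GD21. PD16 and GD21 are used below as labelled, and every difference between the stages, every interaction and every difference between PD16 amitrole and PD16 vehicle or methimazole rests on those labels. Of the 12 PD16 Ami50 libraries, 8 had less than 10 CPM of Eif2s3y, a Y-linked gene, which no other library had, and 15 libraries held 200 CPM or more of the liver gene Alb. Where a call of the 7 genes changed without these libraries, the value without them is given too.

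Gap junctions are clusters of channels made of connexins that let ions and small messengers pass from cell to cell, and connexin 43, the product of Gja1, is the main connexin of the adrenal cortex, where it couples the steroid-making cells. Tight junctions seal the space between cells. F11r (JAM-A) is an adhesion molecule in their membrane, Cgnl1 (paracingulin) an adaptor beneath the membrane, and Tjp1 (ZO-1) the scaffold that also binds connexin 43. Adherens junctions hold cells together through cadherins such as Cdh2 (N-cadherin), whose tail binds Ctnnb1 (β-catenin), which binds Ctnna1 (αE-catenin), which binds actin. β-Catenin is also the messenger of Wnt signalling, which is known for keeping the outer zone of the adrenal cortex.

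Promoter sequences are shown for Gja1 and for F11r and Cgnl1, whose group means moved together. RefSeq's table of promoters (build GRCr8, another build than the rn6 of the reads) held 5 of the 7 genes. Each window runs 5′ to 3′ on the gene's strand from 250 bases before the start of the gene to 50 after it. The windows are chr20:36302314-36302613 on the plus strand for Gja1, chr13:86405979-86406278 on the plus strand for F11r and chr8:81305548-81305847 on the minus strand for Cgnl1. Capitals mark the 2 motifs found in them, AP-1 (TGANTCA) and the GC box (GGGCGG), on either strand.
Gja1: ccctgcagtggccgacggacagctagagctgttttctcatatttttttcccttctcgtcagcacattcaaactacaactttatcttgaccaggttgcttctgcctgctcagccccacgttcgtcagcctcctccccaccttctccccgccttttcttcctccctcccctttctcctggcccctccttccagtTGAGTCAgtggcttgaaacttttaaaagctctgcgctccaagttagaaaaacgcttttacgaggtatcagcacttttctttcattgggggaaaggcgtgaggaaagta
F11r: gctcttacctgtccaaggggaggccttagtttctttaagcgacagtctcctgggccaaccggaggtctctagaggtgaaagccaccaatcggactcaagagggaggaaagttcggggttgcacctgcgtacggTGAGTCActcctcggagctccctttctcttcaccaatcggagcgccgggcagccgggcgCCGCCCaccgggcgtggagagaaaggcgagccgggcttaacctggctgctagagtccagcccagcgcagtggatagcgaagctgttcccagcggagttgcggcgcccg
Cgnl1: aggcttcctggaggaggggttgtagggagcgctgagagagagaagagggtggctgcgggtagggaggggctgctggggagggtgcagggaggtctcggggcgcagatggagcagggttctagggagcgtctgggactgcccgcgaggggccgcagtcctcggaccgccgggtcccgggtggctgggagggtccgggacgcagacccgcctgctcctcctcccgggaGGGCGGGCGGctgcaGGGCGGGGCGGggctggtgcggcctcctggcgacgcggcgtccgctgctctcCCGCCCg
Gja1 and F11r each held the letters TGAGTCA, which begin 58 bases before the start in Gja1 and 117 bases before it in F11r. An AP-1 match was present in 7.33% of all 33469 promoters of the same length. F11r also held 1 GC box on the reverse strand, and Cgnl1 held 5, some of which overlap each other. A GC box was present in 33.1% of all promoters. The Cgnl1 window was 75% G or C, above 96.8% of all promoters, the Gja1 window 50.3% and the F11r window 62.7%, beside a median of 51.7%. The SF-1 motif CAAGGTCA (1.52% of all promoters), the half-site AGGTCA that lies within it (16.2%), TATAAA (14.2%) and the TCF/LEF motif CTTTGAT (3.63%) were also searched on both strands. They had no match in the windows of Gja1, F11r and Cgnl1. The windows of Tjp1 and Ctnnb1 are not read as promoters here, since whether they lie at the start of the gene was not checked. A match is only a run of letters, and no binding was measured.

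Across all libraries Gja1 ranged from 72.5 to 873 CPM, F11r from 86.4 to 853, Cgnl1 from 7.28 to 61.7, Cdh2 from 2.61 to 41.9, Tjp1 from 5.05 to 39.6 and Ctnna1 from 38.0 to 252. These 6 genes had a count in every library and passed the filter on low counts in the fits of PD16, of GD21 and of both stages. Ctnnb1 passed it in none. Its group means lay between 0.336 and 1.67 CPM. It had 47 counts in all 83 libraries together, was at 0 in 51 of them and reached 6.65 CPM at most, which in a table whose counting method and annotation are not given is no measure of whether the gene was expressed. Between the lowest and highest group means the 6 tested genes differed 2.42-fold (Tjp1) to 3.09-fold (Gja1). Each gene's 10 group means, put in order of size, formed 9 neighbouring pairs, and the libraries of the 2 groups overlapped in all 9 pairs of every gene. Gja1 was highest in GD21 vehicle, followed by the other GD21 groups, and lowest in PD16 MMI8 and PD16 MMI16. F11r was highest in GD21 MMI8, PD16 Ami25 and PD16 Ami50 and lowest in PD16 vehicle, MMI16 and MMI8. Cgnl1 was highest in PD16 Ami25 and Ami50 and lowest in PD16 MMI16, MMI8 and vehicle. Cdh2 was highest in PD16 vehicle, and all PD16 groups had higher means than all GD21 groups. Tjp1 and Ctnna1 were highest in PD16 MMI16, and Tjp1 was lowest in GD21 Ami25 and Ctnna1 in GD21 MMI8. In the 5 GD21 groups the means were 369 to 508 CPM for F11r, 29.7 to 37.1 CPM for Cgnl1, 10.9 to 14.7 CPM for Cdh2, 9.02 to 12.2 CPM for Tjp1 and 49.8 to 60.6 CPM for Ctnna1.

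**Figure D1:**
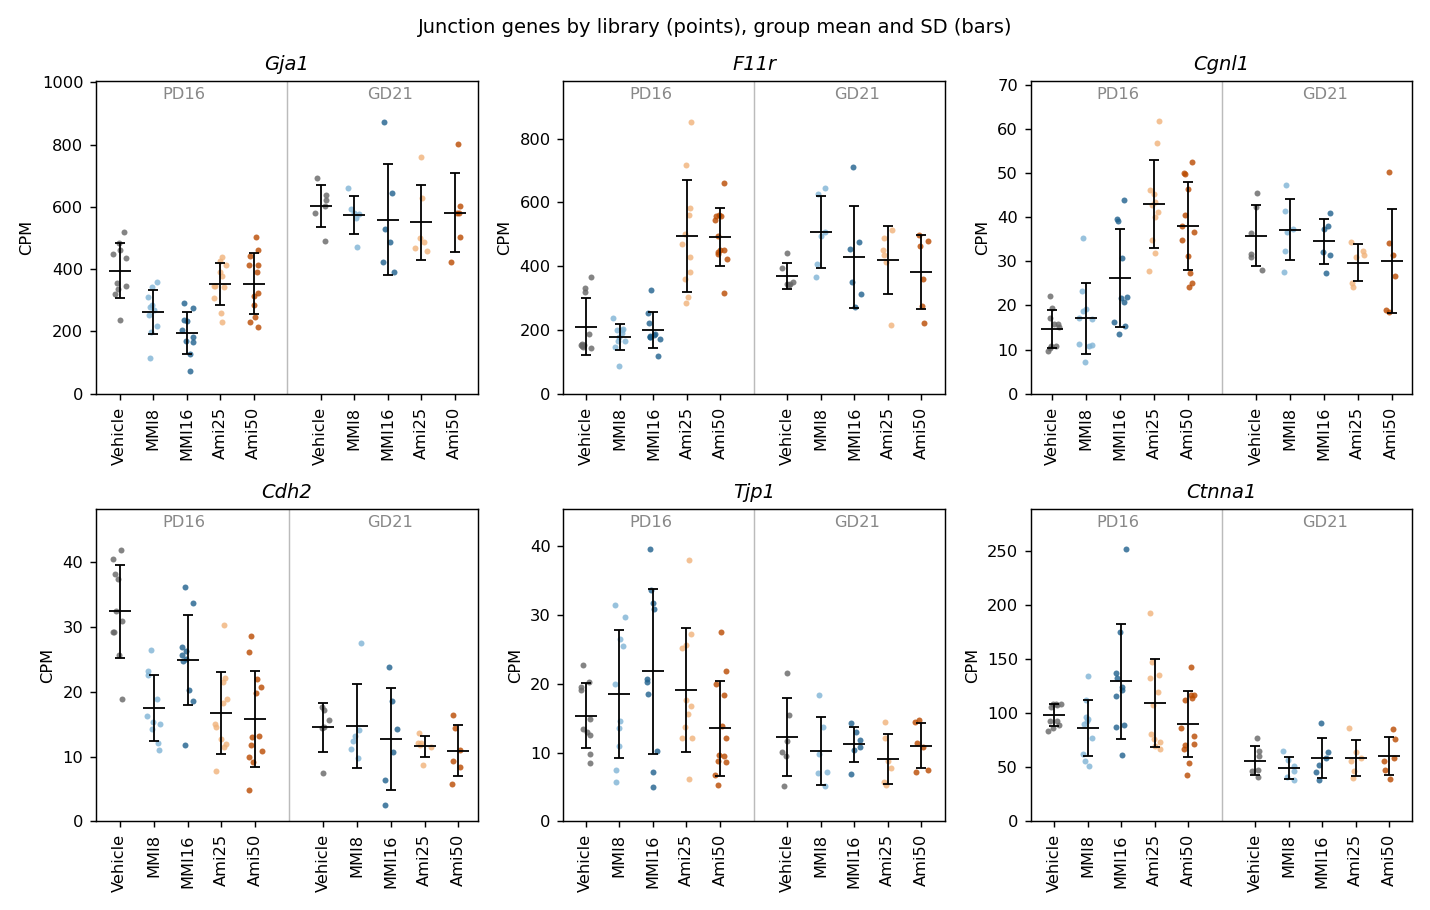
Level of each of the 6 tested junction genes in every library, in CPM, with 1 point per library and bars for each group's mean and SD. Gja1 is low in the PD16 methimazole groups (MMI16 mean 196 CPM, vehicle 395 CPM), F11r and Cgnl1 are high in the PD16 amitrole groups, and Cdh2 is highest in PD16 vehicle.

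The first question was whether the junction genes differed between treated and vehicle libraries at PD16. Differences were tested with edgeR's quasi-likelihood test and called where the adjusted p (Benjamini-Hochberg, over all 4906 tested genes) was below 0.05. Gja1 fell at both doses of methimazole, Cdh2 fell in MMI8 and Cgnl1 rose in MMI16. F11r and Cgnl1 rose and Cdh2 fell at both doses of amitrole. Of the 6 tested genes, 0 rose and 2 fell in MMI8, where 8.11% of all genes were called, 1.37% higher and 6.75% lower. In MMI16, 1 rose and 1 fell, where 7.79% of all genes were called, 0.713% higher and 7.07% lower. In Ami25, 2 rose and 1 fell, where 54.4% of all genes were called, 27.5% higher and 26.9% lower. In Ami50, 2 rose and 1 fell, where 52.4% of all genes were called, 26.4% higher and 26% lower. With amitrole the share of the 6 called lay near the share of all genes. The median log2 fold change of the 6 was -0.27, 0.09, 0.24 and -0.09 for MMI8, MMI16, Ami25 and Ami50, beside 0.01, 0.07, 0.01 and 0.02 over all genes tested. The 4 comparisons share the same 10 vehicle libraries.

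Gja1, the gap junction gene, was lower in both methimazole groups. In MMI16 libraries it had 72.5 CPM at the lowest, 194 at the median and 292 at the highest, and in MMI8 libraries 116, 274 and 359.6 CPM, against 237, 397 and 519 CPM in vehicle libraries. All 10 libraries of each methimazole group lay below the vehicle mean, and 8 of 10 MMI16 and 3 of 10 MMI8 libraries lay below the lowest vehicle library, so the groups overlapped in part. Gja1 averaged 196 ± 67.0 CPM in MMI16, 263 ± 72.0 CPM in MMI8 and 395 ± 88.2 CPM in vehicle (SD, n = 10 each). Relative to vehicle this was a log2 fold change of -1.12 for MMI16 (SE 0.16, 2.17-fold lower, edgeR adjusted p = 1.34e-07) and -0.63 for MMI8 (SE 0.16, 1.55-fold lower, edgeR adjusted p = 0.0037). Under the 9 alternatives these values lay between -1.18 and -1.03 and between -0.66 and -0.62, and both calls held in each.

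Gja1 was not called in either amitrole group. Its lowest, median and highest levels were 231, 346 and 439 CPM in Ami25 libraries and 215, 356.5 and 504 CPM in Ami50 libraries, and 8 of 11 and 7 of 12 lay below the vehicle mean. Against vehicle the log2 fold change was -0.10 for Ami25 (95% interval -0.40 to 0.20, edgeR adjusted p = 0.595) and -0.08 for Ami50 (95% interval -0.38 to 0.21, edgeR adjusted p = 0.659). Without the 8 Ami50 libraries low in Eif2s3y, Gja1 was lower in Ami50, at -0.52 (edgeR adjusted p = 0.0475).

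Markers of other cell types differed between the same groups. The 11 endothelial genes summed to 275 to 554 CPM in MMI16, 316 to 465 CPM in MMI8, 232 to 485 CPM in Ami25 and 235 to 405 CPM in Ami50, against 572 to 825 CPM in vehicle. None of the 11 was at 0 in any group. Of the 9 tested, 2 fell in MMI8, 2 in MMI16, 4 in Ami25 and 4 in Ami50, and none rose. Pecam1 and Kdr fell in all 4 groups, in MMI16 by log2 fold changes of -1.96 (edgeR adjusted p = 7.05e-17) and -1.83 (edgeR adjusted p = 5.47e-20), and the other 7 were not called in MMI16. The 11 leukocyte genes summed to 106 to 185 CPM in MMI16 and 92.5 to 174 CPM in MMI8, against 179 to 227 CPM in vehicle, and 1 of 8 tested fell in each. The genes of adrenal cortex cells, which connexin 43 couples, summed to 12504 to 33744 CPM in MMI16 and 21903 to 33586 CPM in MMI8, against 18217 to 27880 CPM in vehicle, and of 9 tested 0 were called in MMI16 and 1 rose in MMI8. In whole-tissue RNA, fewer cells of a type and less RNA per cell cannot be told apart, and the part of these markers in the Gja1 values was not tested.

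F11r, the JAM-A gene of the tight junction membrane, rose in both amitrole groups. It had 284 CPM at the lowest, 469 at the median and 853 at the highest in Ami25 libraries and 317, 474 and 661 CPM in Ami50 libraries, against 143, 155 and 366 CPM in vehicle libraries. All 11 Ami25 and all 12 Ami50 libraries lay above the vehicle mean, and 8 and 11 of them above the highest vehicle library. The vehicle libraries themselves were uneven, with 7 between 143 and 186 CPM and 3 between 319 and 366 CPM. F11r averaged 495 ± 175 CPM in Ami25 (SD, n = 11) and 492 ± 89.8 CPM in Ami50 (n = 12), against 210.2 ± 90.1 CPM in vehicle (n = 10). The log2 fold change was 1.25 for Ami25 (SE 0.18, 2.38-fold, edgeR adjusted p = 8.37e-08) and 1.30 for Ami50 (SE 0.18, 2.46-fold, edgeR adjusted p = 2.45e-08).

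F11r was not called in either methimazole group. Its levels were 86.4, 184 and 237 CPM at the lowest, median and highest in MMI8 libraries and 119, 183 and 326 CPM in MMI16 libraries, and all but 1 library of each group lay within the vehicle range. The log2 fold change was -0.32 for MMI8 (95% interval -0.71 to 0.08, edgeR adjusted p = 0.481) and -0.10 for MMI16 (95% interval -0.49 to 0.29, edgeR adjusted p = 0.903).

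Cgnl1, the paracingulin gene, was the 1 junction gene whose amitrole and vehicle libraries did not overlap, at either dose, where 13.7% of all genes tested did not overlap for Ami25 and 14% for Ami50. It had 27.8 CPM at the lowest, 42.7 at the median and 61.7 at the highest in Ami25 libraries and 24.2, 37.3 and 52.4 CPM in Ami50 libraries, against 9.63, 15.5 and 22.2 CPM in vehicle libraries. These levels rest on few reads, with a median of 21 counts per library in each amitrole group and 8 in vehicle. The mean was 42.9 ± 9.95 CPM in Ami25 (SD, n = 11) and 38.0 ± 9.98 CPM in Ami50 (n = 12), against 14.7 ± 4.26 CPM in vehicle (n = 10). Cgnl1 thus had a log2 fold change of 1.56 for Ami25 (SE 0.20, 2.94-fold, edgeR adjusted p = 9.41e-10) and 1.46 for Ami50 (SE 0.20, 2.76-fold, edgeR adjusted p = 3.95e-09).

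In the methimazole groups Cgnl1 passed the threshold for MMI16 alone. MMI16 libraries had 13.5, 21.8 and 43.8 CPM at the lowest, median and highest, and 9 of 10 lay above the vehicle mean. The log2 fold change was 0.71 (SE 0.22, 1.63-fold, edgeR adjusted p = 0.0268). The call was lost in 4 of 8 alternatives, with an adjusted p of 0.118 at most, and when any 1 of 7 libraries was left out (vehicle replicates 21 and 24 and MMI16 replicates 9, 10, 29, 30 and 31), with log2 fold changes of 0.64 to 0.81 over all libraries left out in turn. Without the libraries high in Alb the value was 0.67 (edgeR adjusted p = 0.0623). MMI8 gave 0.21 (95% interval -0.26 to 0.68, edgeR adjusted p = 0.785).

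The adrenal cortex and leukocyte markers had higher mean sums in the amitrole groups, where F11r and Cgnl1 rose, than in vehicle. They were compared by group and not library by library. The cortex genes summed to 18232 to 64385 CPM in Ami25 and 28975 to 73672 CPM in Ami50, against 18217 to 27880 CPM in vehicle, and 7 of 9 tested rose in Ami25 and 9 of 9 in Ami50. The leukocyte genes summed to 205 to 515 CPM in Ami25 and 274 to 551 CPM in Ami50, against 179 to 227 CPM in vehicle, and 7 of 8 tested rose and 1 fell in each. None of the genes of these 2 lists was at 0 in these 3 groups. The 5 epithelial genes, which would mark cells rich in tight junctions, summed to 9.03 to 95.6 CPM in Ami25 and 12.5 to 37.0 CPM in Ami50, against 7.87 to 32.7 CPM in vehicle. The part of these markers in the rise of F11r and Cgnl1 was not tested.

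Tjp1, the ZO-1 scaffold gene, was called in none of the 21 comparisons, although with the libraries high in Alb left out it was higher in PD16 MMI16 than in GD21 MMI16 (log2 fold change 0.84, edgeR adjusted p = 0.0378), and without MMI16 replicate 9 lower in Ami50 than in MMI16 (-0.67, edgeR adjusted p = 0.0425). At PD16 it ranged from 5.75 to 31.4 CPM in MMI8, 5.05 to 39.6 in MMI16, 6.16 to 37.9 in Ami25 and 5.33 to 27.5 in Ami50, against 8.55 to 22.7 CPM in vehicle, on medians of 6 to 10 counts per library. The log2 fold change against vehicle was 0.20 for MMI8 (95% interval -0.38 to 0.78), 0.34 for MMI16 (-0.22 to 0.90), 0.33 for Ami25 (-0.22 to 0.87) and -0.18 for Ami50 (-0.74 to 0.39). These intervals leave room for changes of up to 0.90 on the log2 scale.

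Cdh2, the N-cadherin gene, was highest in PD16 vehicle and fell in 3 of the 4 treated groups. It had 11.0 CPM at the lowest, 15.8 at the median and 26.4 at the highest in MMI8 libraries, 7.74, 15.1 and 30.3 CPM in Ami25 libraries and 4.82, 13.1 and 28.5 CPM in Ami50 libraries, against 18.8, 31.7 and 41.9 CPM in vehicle libraries. All libraries of these 3 groups lay below the vehicle mean, and 6 of 10, 8 of 11 and 7 of 12 lay below the lowest vehicle library. The median was 7 counts per library in each of these groups and 21 in vehicle. Their log2 fold changes were -0.91 for MMI8 (SE 0.20, edgeR adjusted p = 0.000768), -0.95 for Ami25 (SE 0.19, edgeR adjusted p = 3.36e-05) and -0.97 for Ami50 (SE 0.19, edgeR adjusted p = 1.82e-05). Without the 8 Ami50 libraries low in Eif2s3y the last was -1.60. MMI16 libraries lay between, at 11.8, 25.4 and 36.1 CPM, with a log2 fold change of -0.47 (95% interval -0.85 to -0.09, edgeR adjusted p = 0.161). N-cadherin is made by endothelial and mesenchymal cells as well. The endothelial sums given beside Gja1 were lowest in the 2 amitrole groups and highest in vehicle. Of the 9 tested endothelial genes, though, only 2 fell in each methimazole group and 4 in each amitrole group, and the others were not called. The endothelial sums had medians of 377 CPM in MMI8 and 384 CPM in MMI16, and Cdh2 was not called between these 2 groups. The 13 mesenchyme and capsule genes summed to 1746 to 4243 CPM in MMI8, 2713 to 7311 CPM in Ami25 and 2199 to 7695 CPM in Ami50, against 2775 to 4573 CPM in vehicle, and of 11 tested 0 rose and 1 fell in MMI8 and 6 rose and 1 fell in each amitrole group. None of the 13 was at 0 in these groups. The part of these cells in the Cdh2 values was not tested.

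Ctnna1, the αE-catenin gene, was not called against vehicle in any PD16 group. It ranged from 51.2 to 134 CPM in MMI8, 61.5 to 252 in MMI16, 66.8 to 193 in Ami25 and 42.7 to 143 in Ami50, against 83.5 to 109 CPM in vehicle. The treated groups spread more widely than vehicle, with an SD of 25.8 to 53.2 CPM against 10.4 CPM. They were also shallower, with median totals of 391746 to 551457 counts against 627048 in vehicle. The highest MMI16 library, replicate 10 at 252 CPM on 51 counts, was the shallowest of all, with a total of 202270. The part of depth in this spread was not tested. Treated libraries lay both above and below the vehicle range, 7 above and 1 below in MMI16 and 5 above and 6 below in Ami50. The log2 fold changes were -0.22, 0.27, 0.16 and -0.10 for MMI8, MMI16, Ami25 and Ami50, with 95% intervals within -0.57 and 0.61.

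**Figure D2:**
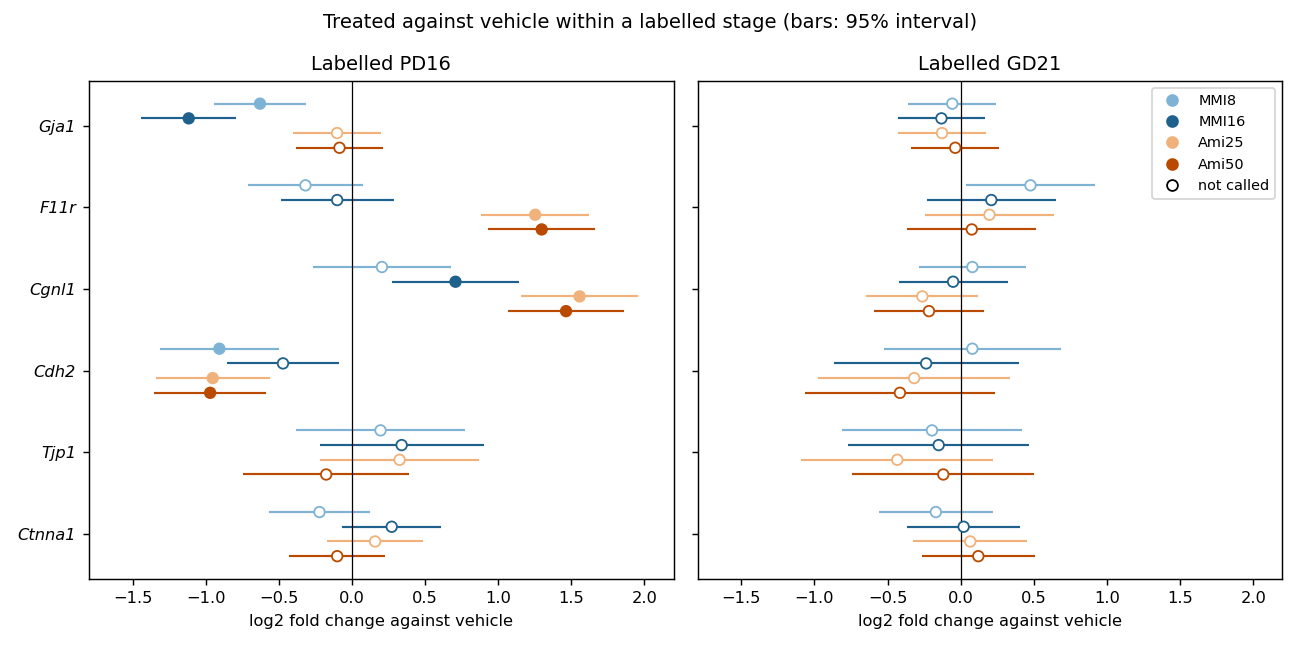
Log2 fold change of the 6 tested junction genes in each treated group over the vehicle group of the same stage, with 95% intervals and filled points where edgeR's adjusted p was under 0.05. At PD16, Gja1 lies at -1.12 for MMI16 and near 0 for both amitrole doses, F11r and Cgnl1 lie between 1.25 and 1.56 for amitrole, and no point is filled at GD21.

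The next question was whether dose or compound set the junction genes apart. Between the 2 doses of a compound no junction gene was called. For MMI16 against MMI8 edgeR called 1.96% of all genes (0.143% higher, 1.81% lower) and 0 of the 6, with 3 of the 6 at an unadjusted p under 0.05 and 0 called by DESeq2. The log2 difference of MMI16 from MMI8 was -0.49 for Gja1 (95% interval -0.82 to -0.16, edgeR adjusted p = 0.137), 0.49 for Ctnna1 (0.14 to 0.85, adjusted p = 0.168) and 0.50 for Cgnl1 (0.05 to 0.96, adjusted p = 0.339). Without MMI8 replicate 66, the library lowest in Gja1 in its group, Gja1 differed at -0.57 (edgeR adjusted p = 0.0293). For Ami50 against Ami25 edgeR called 0% of all genes (206 had an unadjusted p under 0.05, and DESeq2 called 1) and 0 of the 6, of which 0 had an unadjusted p under 0.05 and 0 were called by DESeq2. The log2 differences were 0.02 for Gja1 (95% interval -0.28 to 0.31), 0.04 for F11r (-0.30 to 0.39), -0.09 for Cgnl1 (-0.44 to 0.25) and -0.02 for Cdh2 (-0.44 to 0.41).

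The compounds, which differ in structure (methimazole is an imidazole thione, amitrole an aminotriazole), were given at unequal doses, so a difference between them holds for these doses only. Gja1, F11r and Cgnl1 were higher in both amitrole groups than in the methimazole group set beside each. Of the 6 tested genes, 3 were higher and 0 lower in Ami25 than in MMI8 (48.3% of all genes called, 24.2% higher and 24.1% lower), and 3 were higher and 1 lower in Ami50 than in MMI16 (47.1% of all genes called, 22.3% higher and 24.8% lower). Gja1 was 0.53 higher on the log2 scale in Ami25 than in MMI8 (SE 0.16, edgeR adjusted p = 0.00421) and 1.03 higher in Ami50 than in MMI16 (SE 0.16, edgeR adjusted p = 2.51e-07), and all 12 Ami50 libraries lay above the MMI16 mean. Without the 8 Ami50 libraries low in Eif2s3y the last value was 0.60. F11r was 1.57 higher in Ami25 than in MMI8, with no overlap, where 10.5% of all genes did not overlap (SE 0.19, edgeR adjusted p = 1.38e-09), and 1.40 higher in Ami50 than in MMI16 (SE 0.19, edgeR adjusted p = 1.13e-08). Cgnl1 was 1.35 higher in Ami25 than in MMI8 (SE 0.21, edgeR adjusted p = 1.7e-07) and 0.76 higher in Ami50 than in MMI16 (SE 0.19, edgeR adjusted p = 0.000825). Cdh2 was lower in Ami50 than in MMI16 (log2 fold change -0.50, edgeR adjusted p = 0.0408), a call that was lost in 4 of 9 alternatives, where the adjusted p reached 0.142, and which without the libraries high in Alb was -0.47 (edgeR adjusted p = 0.0696). It was also lost without any 1 of 10 libraries (MMI16 replicates 12, 29 and 75 and Ami50 replicates 17, 18, 19, 20, 39, 40 and 85), with an adjusted p of up to 0.102. Ctnna1 was not called in this comparison (-0.37, edgeR adjusted p = 0.0588), but it was lower in Ami50 without the libraries high in Alb (-0.46, edgeR adjusted p = 0.0375) and without any 1 of 10 libraries (MMI16 replicates 9, 30, 31, 73 and 75 and Ami50 replicates 18, 37, 83, 84 and 86), so which gene counts as lower depends on the libraries used. In Ami25 against MMI8 its value was 0.38 (edgeR adjusted p = 0.0618), and it was called higher without any 1 of 5 libraries (Ami25 replicates 13, 14, 15 and 35 and MMI8 replicate 7).

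At GD21 the junction genes gave no call for either compound at either dose. edgeR called 0% of the 6236 genes tested in each of the 4 comparisons, where 159 (MMI8), 201 (MMI16), 555 (Ami25) and 410 (Ami50) genes had an unadjusted p under 0.05, and DESeq2 called 23 genes for Ami50 and 0 in the others. Of the 6 junction genes, 1 (F11r) had an unadjusted p under 0.05 in MMI8 and 0 in the other groups, and DESeq2 called 0. The log2 fold changes of the 6 ran from -0.20 to 0.48 in MMI8 and -0.24 to 0.21 in MMI16. They ran from -0.43 to 0.20 in Ami25 and -0.42 to 0.12 in Ami50. All 6 Ami25 libraries lay below the vehicle mean in Cgnl1 and Cdh2, and the other tested genes had Ami25 libraries on both sides of it. A missing call here does not show that a gene was unchanged. F11r in MMI8 had 365 CPM at the lowest, 502 at the median and 645 at the highest, against 342, 348 and 442 CPM in vehicle, and 4 of 6 MMI8 libraries lay above the highest vehicle library (log2 fold change 0.48, 95% interval 0.04 to 0.92, edgeR adjusted p = 0.999). Gja1 ranged from 471 to 661 CPM in MMI8, 391 to 873 in MMI16, 457 to 761 in Ami25 and 422 to 801 in Ami50, against 489.9 to 692 CPM in vehicle. Its log2 fold changes were -0.06, -0.13, -0.13 and -0.04, and their 95% intervals lay within -0.43 and 0.26. Falls of the size of that in PD16 MMI16 lie outside these intervals.

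The difference between the stages in the effect itself was tested as an interaction in 1 fit of all 10 groups over 6287 genes. The MMI16 difference from vehicle in Gja1 was lower at PD16 than at GD21 (interaction -1.01, SE 0.24, edgeR adjusted p = 0.00206), and Gja1 was the 1 of 6 junction genes called, where 4.77% of all genes were (0.0636% higher, 4.71% lower). The Ami50 difference from vehicle was higher at PD16 than at GD21 in F11r (1.19, SE 0.29, edgeR adjusted p = 0.000814) and Cgnl1 (1.65, SE 0.28, edgeR adjusted p = 8.95e-07), 2 of 6 where 31.1% of all genes were called (15.4% higher, 15.6% lower). The Ami50 interaction of Cdh2 was -0.60 (95% interval -1.30 to 0.10, edgeR adjusted p = 0.202), and it reached -1.21 (adjusted p = 0.0206) without the 8 libraries low in Eif2s3y.

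The study also compared the 2 stages, taken here as labelled although the globin shares run against the labels. In vehicle libraries Gja1, F11r and Cgnl1 were lower at PD16 than at GD21, and Cdh2 and Ctnna1 were higher. That is 2 of 6 higher and 3 of 6 lower, where 44.1% of all genes were called (22.8% higher, 21.2% lower). Gja1 had 237 CPM at the lowest, 397 at the median and 519 at the highest at PD16, against 489.9, 612 and 692 CPM at GD21 (log2 fold change -0.75, SE 0.17, edgeR adjusted p = 0.000122). F11r had 143, 155 and 366 CPM at PD16, against 342, 348 and 442 CPM at GD21 (-0.93, SE 0.21, edgeR adjusted p = 0.000141). In both genes the ranges of the stages overlapped at their edges.

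Cgnl1, Cdh2 and Ctnna1 separated the vehicle libraries of the 2 stages completely, 3 of 6 where 17.2% of all genes tested did. Cgnl1 had 9.63, 15.5 and 22.2 CPM at PD16, against 28.1, 34.0 and 45.5 CPM at GD21 (log2 fold change -1.42, SE 0.20, edgeR adjusted p = 8.2e-09). Cdh2 had 18.8, 31.7 and 41.9 CPM at PD16, against 7.40, 15.1 and 17.7 CPM at GD21 (1.00, SE 0.23, edgeR adjusted p = 0.000249). Ctnna1 had 83.5, 99.5 and 109 CPM at PD16, against 41.2, 54.1 and 77.04 CPM at GD21 (0.68, SE 0.19, edgeR adjusted p = 0.00187). The marker sums differed between the stages too, with the cortex genes at 18217 to 27880 CPM and the leukocyte genes at 179 to 227 CPM in PD16 vehicle, against 36500.3 to 48159 CPM and 394 to 648 CPM in GD21 vehicle, and their part was not tested.

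Gja1 was lower at PD16 than at GD21 in all 4 treated groups too, by log2 fold changes of -1.35 in MMI8, -1.76 in MMI16, -0.77 in Ami25 and -0.84 in Ami50 (highest edgeR adjusted p = 0.000269). F11r was lower at PD16 in MMI8 (-1.74, edgeR adjusted p = 8.27e-11) and MMI16 (-1.28, edgeR adjusted p = 4.19e-07), and its values were 0.08 (95% interval -0.32 to 0.49) in Ami25 and 0.26 (-0.15 to 0.66) in Ami50. Cgnl1 was lower in MMI8 (-1.31, edgeR adjusted p = 1.54e-07) and MMI16 (-0.68, edgeR adjusted p = 0.00347), with 0.36 (-0.02 to 0.75) in Ami25 and 0.23 (-0.14 to 0.61) in Ami50. Ctnna1 was higher at PD16 in MMI8 (0.61), MMI16 (0.91) and Ami25 (0.73), and its value in Ami50 was 0.43 (95% interval 0.05 to 0.80, edgeR adjusted p = 0.197). Cdh2 was higher in MMI16 (0.74, edgeR adjusted p = 0.0142), a call lost when only the compared libraries were fitted (adjusted p = 0.0604). In MMI8, 1 of 6 was higher and 3 lower at PD16, beside 47.1% of all genes called (21.5% higher, 25.7% lower). In MMI16, 2 were higher and 3 lower, beside 45.4% of all genes (21.7% higher, 23.7% lower). In Ami25, 1 was higher and 1 lower, beside 10.4% of all genes (3.58% higher, 6.86% lower), where the 225 genes higher became 124 without the libraries high in Alb. In Ami50, 0 were higher and 1 lower, beside 7.57% of all genes (1.26% higher, 6.31% lower), where the 79 genes higher became 7 without the libraries low in Eif2s3y.

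**Figure D3:**
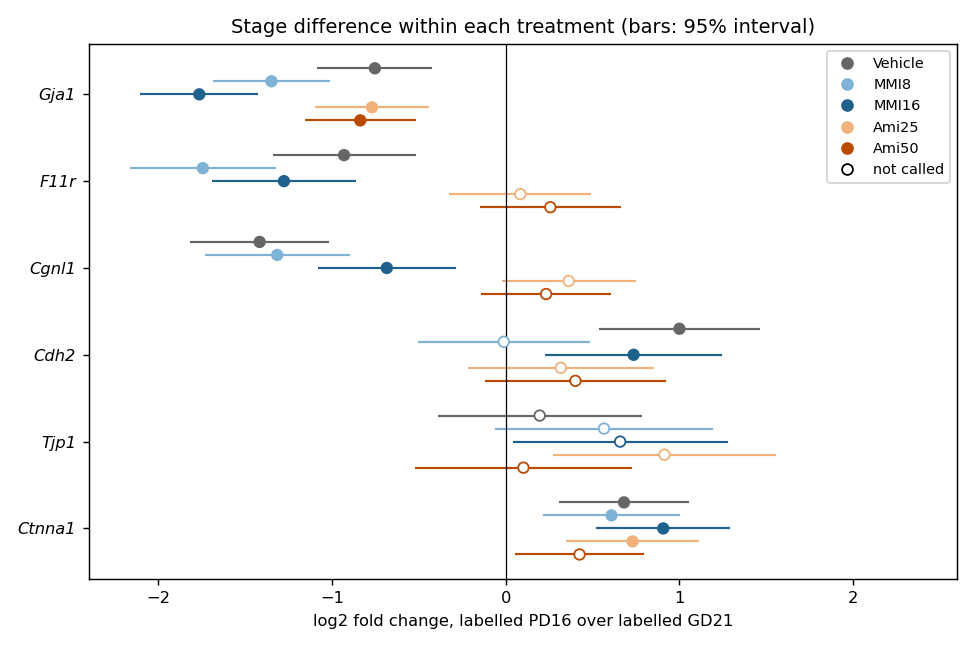
Log2 fold change of the 6 tested junction genes at PD16 over GD21 in each treatment group, with 95% intervals and filled points where edgeR's adjusted p was under 0.05. Gja1 lies below 0 in all 5 groups (-0.75 to -1.76), while F11r and Cgnl1 lie below 0 in vehicle, MMI8 and MMI16 and near 0 or above it in the amitrole groups.

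Set directly against GD21 vehicle, the PD16 amitrole libraries were not called in F11r, Cgnl1, Cdh2 and Tjp1 and were called in Gja1 and Ctnna1. F11r differed by 0.30 (95% interval -0.11 to 0.71) in PD16 Ami25 and 0.35 (-0.06 to 0.75) in PD16 Ami50, Cgnl1 by 0.13 (-0.24 to 0.49) and 0.03 (-0.33 to 0.39), and Cdh2 by 0.03 (-0.47 to 0.52) and 0.01 (-0.50 to 0.51) on the log2 scale. These intervals leave room for differences of up to 0.75. Gja1 was lower than in GD21 vehicle, with log2 fold changes of -0.88 in PD16 Ami25 (edgeR adjusted p = 2.19e-05) and -0.86 in PD16 Ami50 (edgeR adjusted p = 2.09e-05). Ctnna1 was higher, at 0.82 in PD16 Ami25 (edgeR adjusted p = 0.000643) and 0.56 in PD16 Ami50 (edgeR adjusted p = 0.0307), the second of which was not called in 4 of 8 alternatives, among them without the libraries high in Alb (0.46, edgeR adjusted p = 0.278) and without those low in Eif2s3y (0.42, edgeR adjusted p = 0.464). That is 1 of 6 higher and 1 lower in each comparison, where 24.5% of all genes were called for PD16 Ami25 (11.7% higher, 12.8% lower) and 12.8% for PD16 Ami50 (5.36% higher, 7.41% lower). The number of all genes higher in PD16 Ami50, 337, was 18 without the libraries low in Eif2s3y and 113 without those high in Alb, and for PD16 Ami25 736 became 428 without those high in Alb.

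The 7 genes were set beside other junction genes from lists of gap junction (22 genes), tight junction (50), adherens junction (36), desmosome (13) and β-catenin signalling (28) genes. Most were too low to test at PD16, where 1 gap, 5 tight, 6 adherens, 0 desmosome and 7 β-catenin signalling genes passed the filter. In MMI8 and in MMI16, 1 of 6 adherens genes fell and none of the other 13 tested genes of these lists was called. Of all genes tested, 8.11% were called in MMI8 and 7.79% in MMI16. In Ami25, 2 of 6 adherens genes rose and 2 fell, 1 of 5 tight junction genes fell, and 3 of 7 β-catenin signalling genes fell. In Ami50, 1 of 6 adherens genes rose and 2 fell, 1 of 5 tight junction genes rose and 1 fell, and 4 of 7 β-catenin signalling genes fell. Of all genes tested, 54.4% were called in Ami25 (27.5% higher, 26.9% lower) and 52.4% in Ami50 (26.4% higher, 26% lower). Without the libraries high in Alb, Cdh11 (-0.45, edgeR adjusted p = 0.0557) and Dkk3 (-0.61, edgeR adjusted p = 0.0531) were no longer called in Ami25, and without those low in Eif2s3y Csnk1a1 rose in Ami50 (1.07, edgeR adjusted p = 0.031).

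The adherens gene that fell in all 4 treated groups was Vcl, which encodes vinculin, the protein that α-catenin recruits to couple the junction to actin under tension. Vcl had 88.9 CPM at the lowest, 202 at the median and 353 at the highest in PD16 MMI8 libraries, 27.0, 94.2 and 134 CPM in MMI16, 42.3, 70.3 and 98.6 CPM in Ami25 and 33.1, 46.5 and 86.0 CPM in Ami50, against 387, 574 and 837 CPM in vehicle. No library of any treated group overlapped the vehicle libraries, where 3.06% of all genes did not overlap in MMI8, 3.85% in MMI16, 13.7% in Ami25 and 14% in Ami50. The log2 fold change was -1.53 for MMI8 (SE 0.185, edgeR adjusted p = 1.82e-09), -2.92 for MMI16 (SE 0.202, 7.59-fold lower, edgeR adjusted p = 4.49e-18), -3.00 for Ami25 (SE 0.195, edgeR adjusted p = 2.33e-19) and -3.45 for Ami50 (SE 0.197, edgeR adjusted p = 7.95e-22). MMI16 was also lower than MMI8, at -1.39 (edgeR adjusted p = 7.87e-06). At GD21 Vcl averaged 323 to 445 CPM in the treated groups and 333 ± 66.4 CPM in vehicle, with no call, and the interaction was -2.87 for MMI16 (edgeR adjusted p = 8.04e-12) and -3.91 for Ami50 (edgeR adjusted p = 4.9e-18).

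Among the other called genes, Cldn5, the claudin of endothelial tight junctions, fell in Ami50 (14.7 ± 8.42 CPM, against 34.5 ± 9.32 CPM in vehicle, log2 fold change -1.23, edgeR adjusted p = 8.06e-05). Cdh11, a mesenchymal cadherin, fell in Ami50 (-0.86, edgeR adjusted p = 0.000179), and Nectin2, an adhesion molecule of adherens junctions, rose (0.84, edgeR adjusted p = 0.0088). Ybx3, a transcription factor that binds ZO-1, rose in Ami50 (0.87, edgeR adjusted p = 0.0176). The call was lost when a covariate stood for the series of library numbers (0.66, edgeR adjusted p = 0.0574) and without Ami50 replicate 17 (0.60, edgeR adjusted p = 0.0826), and its libraries spread from 114 to 847 CPM around a median of 199 CPM, against 132 to 340 CPM in vehicle around a median of 177 CPM. Of the β-catenin signalling genes, Ccnd1 (cyclin D1, a target), Gsk3b (a kinase that marks β-catenin for destruction) and Dkk3 (a secreted protein of the Dickkopf family) fell in Ami50, by log2 fold changes of -0.80, -0.79 and -0.88. Cyclin D1 is a product of the pathway and Gsk3b restrains it.

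Between the stages in vehicle libraries, 4 of 11 tested tight junction genes were higher and 2 lower at PD16, 2 of 9 adherens genes were higher and 0 lower, 1 of 2 gap junction genes was higher and 1 lower, and 4 of 10 β-catenin signalling genes were higher and 1 lower. Of all genes tested, 44.1% were called in this comparison, 22.8% higher and 21.2% lower. Cldn5 (log2 fold change 1.85) and Esam (0.52), both of endothelial junctions, were higher at PD16, as were Gja4 (connexin 37 of vessels, 0.64), Cdh11 (1.45), Vcl (0.72), Dkk3 (1.46) and Ccnd1 (0.71). Ybx3 (-1.43) and Csnk1a1 (-1.37), a kinase of the β-catenin destruction complex, were lower at PD16. The highest edgeR adjusted p among these 9 was 0.0323. Without the libraries high in Alb, Ccnd1 (0.32, edgeR adjusted p = 0.265) and Esam (0.47, edgeR adjusted p = 0.0604) were no longer called, nor was Gja4 with no filter on low counts (0.61, edgeR adjusted p = 0.0862).

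**Figure D4:**
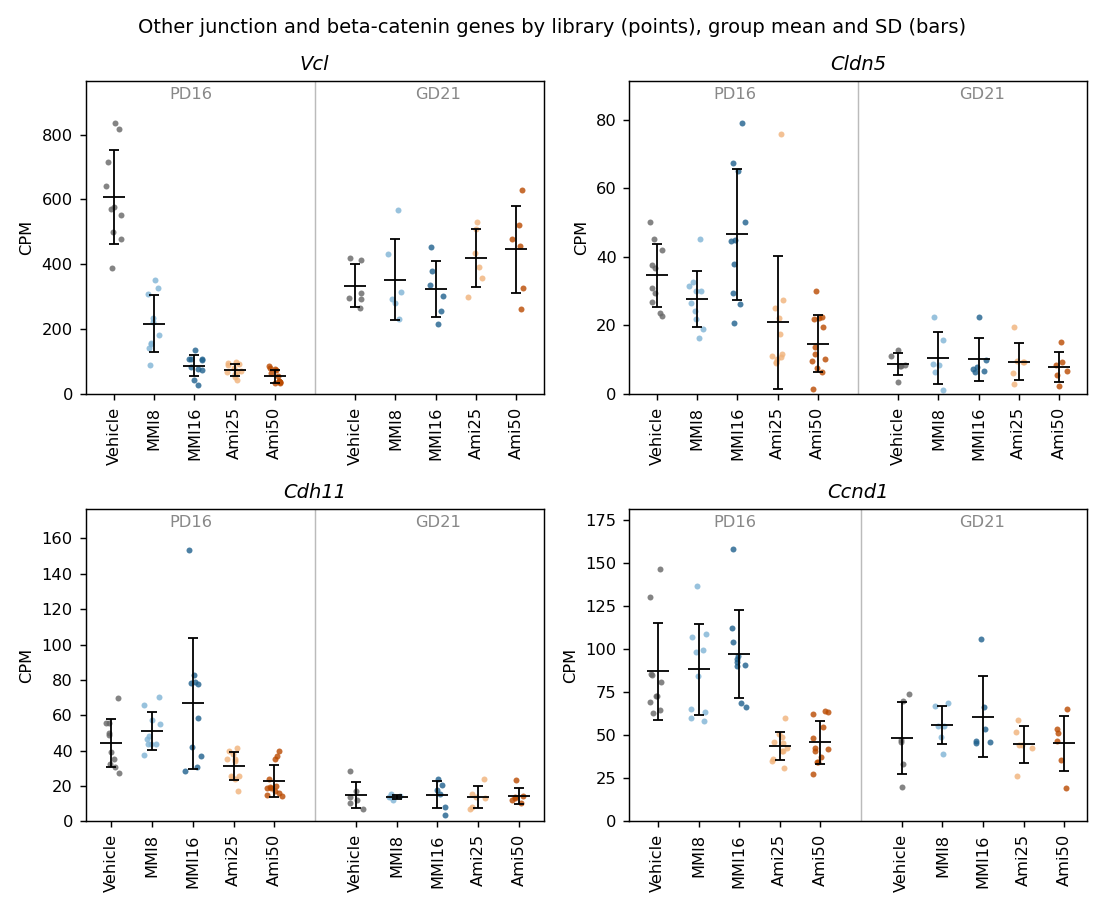
Level of Vcl, Cldn5, Cdh11 and Ccnd1 in every library, in CPM, with 1 point per library and bars for each group's mean and SD. Vcl lies at 387 to 837 CPM in PD16 vehicle and at 27.0 to 353 CPM in the 4 treated PD16 groups, with no overlap.

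How the junction genes moved relative to each other is a description over the 10 group means of log2 CPM, which share libraries and depth within a group. Among the 6 tested genes, F11r and Cgnl1 were most alike (r = 0.93), Tjp1 and Ctnna1 came next (r = 0.86), and Gja1 ran opposite to Ctnna1 (r = -0.85) and Tjp1 (r = -0.83). Over the 83 libraries after each group's mean was taken off, no pair had an r outside -0.19 to 0.25.

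Among 3992 other genes of at least 20 CPM, the patterns most like Gja1 over the 10 group means were those of Sdc4 (a cell-surface proteoglycan, r = 0.985), Mapk13 (a stress-activated kinase, r = 0.983) and Plin2 (a coat protein of lipid droplets, r = 0.982). Plin2 averaged 206 CPM in PD16 MMI8, 204 CPM in PD16 MMI16, 376 CPM in PD16 Ami25 and 351 CPM in PD16 Ami50, against 396 CPM in PD16 vehicle, and 573 to 646 CPM in the GD21 groups. The genes most like F11r were Rps6ka1 (r = 0.995, but 0.861 over log2 of mean CPM + 1) and Ctsh, a lysosomal protease (r = 0.993). Those most like Cgnl1 were Igsf11 (r = 0.977) and Gabarapl1 (r = 0.974), and those most like Cdh2 were Plxnd1 (r = 0.967) and Polr1e (r = 0.937). Tjp1 was most like Oaf and Tgfb3 (r = 0.939 each), and Ctnna1 most like Vcp and Rad21 (r = 0.963 each).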

How the data were processed

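Libraries were made by BRB-seq from RNA of rat offspring, per the labels' protocols, and the submitters' processing notes name BWA 0.7.4.4 and the build rn6. The authors deposited raw counts per gene symbol and library in 1 table. How reads were counted (tool, annotation, strand, molecular barcodes) and which libraries share a litter is not given in the sources used here. Groups were taken from the labels. No 2 of 331 pairs of libraries within a group were copies (lowest chi-square per degree of freedom 1.56). The 7 junction genes and the gene lists were chosen with earlier results of these data known.

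Counts were tested with edgeR 4.0.16 (R 4.3.3): TMM scaling, filterByExpr with a minimum count of 10, a robust quasi-likelihood fit and Benjamini-Hochberg adjustment over all genes tested, called under 0.05. Comparisons within a stage were fitted on the 5 groups of that stage (4906 genes at PD16, 6236 at GD21), and comparisons between stages and interactions on all 10 groups (6287 genes). 95% intervals are for the log2 fold change. CPM is the count over the library total, and its precision is limited by counting, since 1 count is worth 2.03 CPM at the PD16 median total and 1.04 CPM at the GD21 median total. The code was tested on simulated data.

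Of the other junction genes, up to 3 called per list were named in PD16 MMI16 and PD16 Ami50 against PD16 vehicle and in PD16 vehicle against GD21 vehicle, those with the largest absolute log2 fold change among genes of at least 20 CPM in either group. Likeness was Pearson's r over the 10 group means of log2 CPM, naming 3 genes for Gja1 and 2 for the others. Alternatives were DESeq2 1.42.0, DESeq2's size factors in edgeR, other filters, the compared libraries only, a covariate for the library number series, and leaving out shallow libraries (under 0.5 of the stage median), libraries with Alb at 200 CPM or more, libraries with Eif2s3y under 10 CPM, or each library in turn. The covariate was used only within a stage. Most number series hold libraries of only PD16 or only GD21, so stage differences and interactions were not adjusted for it. RefSeq's table of another build (GRCr8) gave promoter sequences only.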

Additional observations from a re-analysis of the deposited data

Results flagged for a closer look

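The response to treatment differed between the stages in 3 cases, by the interaction term of edgeR's fit of all 10 groups. Gja1 was lower in MMI16 at PD16 relative to GD21 by an interaction of -1.01 (log2), F11r was higher in Ami50 by 1.19 and Cgnl1 was higher in Ami50 by 1.65. These are 1 of 6 genes for MMI16, where 4.77% of all genes were called, and 2 of 6 for Ami50, where 31.1% of all genes were called, a share near that of the 6. The globin shares run against the stage labels on which these interactions rest.

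Single libraries stood apart in 4 of the 56 groups of values examined for a library far from the rest, where chance gives about 1 in 20. The larger PD16 Ami25 and PD16 Ami50 groups were not examined in this way. F11r in GD21 Ami25 was lowest in replicate 52, at 215 CPM, with the next library at 414 CPM. Cdh2 in GD21 vehicle was lowest in replicate 42, at 7.40 CPM on 7 counts, with the next at 14.5 CPM. Cdh2 in GD21 MMI8 was highest in replicate 45, at 27.5 CPM on 42 counts, with the next at 14.1 CPM. Ctnnb1 in GD21 MMI8 was highest in replicate 46, at 3.98 CPM on 5 counts, with the next at 0.655 CPM. All 4 libraries are labelled GD21, where no gene was called against vehicle. Replicate 42 enters the call of Cdh2 between PD16 and GD21 vehicle, which was not repeated without it.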

How the results depend on the processing

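No paired analysis was possible because the library numbers in the labels are unique and no number is shared between groups. For the 6 tested junction genes, 992 of 1009 values under the alternatives stayed on the same side of the threshold, 13 lost a call and 4 gained one, and of 1302 values with 1 library left out 1268 did so, 17 lost and 17 gained a call. The sign changed in 41 of the 1009 and 45 of the 1302 values, in no case of a called value. Of the counts of junction genes called, 329 of 344 under the alternatives and 410 of 434 with 1 library left out stayed within 1.5 times. These counts were only 0 to 3 in the main fits, and a 0 that stayed at 0 was held as unchanged, so a high share was likely from the start. The count of junction genes higher in PD16 MMI16 than in vehicle (1, Cgnl1) was 0 without a filter, without shallow libraries, without libraries high in Alb and with DESeq2, and 0 to 1 with single libraries left out. It was also 0 with the compared libraries only, where Cgnl1 did not pass the filter on low counts and was not tested. The count lower in PD16 Ami50 than in MMI16 (1, Cdh2) was 0 without a filter, with the compared libraries only and with DESeq2, and 0 to 3 with single libraries left out. The count higher in PD16 Ami50 than in GD21 vehicle (1, Ctnna1) was 0 without a filter, with the compared libraries only, without libraries high in Alb and without those low in Eif2s3y. The count higher in PD16 MMI16 than in GD21 MMI16 (2) was 1 with the compared libraries only. Without the libraries low in Eif2s3y, 2 in place of 1 were lower in PD16 Ami50 than in vehicle and 1 in place of 0 in the Ami50 interaction. The count lower in MMI16 than in MMI8 (0) was 0 to 1 with single libraries left out. The causes were not tested. With log2 of mean CPM + 1, Rps6ka1 had an r of 0.861 with F11r and was no longer among the 10 most alike, while the other 12 named genes stayed among the 10 most alike. Leaving out single libraries and the covariate for the library number series were not run between stages. The counts of all genes called higher moved by over 1.5 times in several comparisons: for PD16 MMI8 against vehicle 67 became 24 without a filter and 135 with the compared libraries only, for PD16 MMI16 35 became 18 and 13, and for PD16 Ami50 against GD21 Ami50 79 became 26 and 35, 36 without the libraries high in Alb and 7 without those low in Eif2s3y. For PD16 Ami50 against GD21 vehicle 337 became 131, 224, 113 and 18 under the same 4 settings. Without a filter and without the libraries high in Alb, 736 became 359 and 428 for PD16 Ami25 against GD21 vehicle, and 225 became 103 and 124 against GD21 Ami25. Cdh2 and Tjp1 rest on medians of 6 to 21 counts per library, which limits what could be detected.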
